A study of Saccharomyces cerevisiae with 12 samples.

Results

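The cytosolic ribosomal protein genes of Saccharomyces cerevisiae were read from the Affymetrix arrays of a yeast study of ethanol tolerance. Members were the probe sets whose annotated yeast symbol begins with RPL or RPS followed by a number, or with RPP followed by a digit, with or without a final A or B. This took 148 probe sets of 128 genes out of 5449 yeast genes measured. One of the 128, RPP1, encodes a subunit of ribonucleases P and MRP and only shares the spelling, so it was kept apart and counts are over 127 ribosomal protein genes. Of these, 70 encode proteins of the large subunit, 52 of the small subunit and 5 the stalk of the large subunit. RefSeq's table for the R64 assembly lists 137 such genes. The other 10 were not analysed here.

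All cultures were of the haploid laboratory strain BY4741, whose mating type is a, and carried a p416-Tefmut2 plasmid. In the mutant the plasmid held spt15-300, a mutant allele of the gene of the TATA-binding protein, and in the wild type it held SPT15. The cells grew at 30 °C in closed tubes in YSC -URA medium and were harvested in growth, and the arrays read their total RNA. The 4 groups were the mutant with 5% ethanol and 60 g/L glucose, the wild type with 5% ethanol and 60 g/L glucose, the mutant with 0% ethanol and 20 g/L glucose, and the wild type with 0% ethanol and 20 g/L glucose. Each group had 3 biological replicates, per the series' design. Replicate 2 of the mutant with ethanol is called an outlier in its own title and was left out, so that group has 2 arrays and the others have 3. Below, "ethanol medium" means 5% ethanol with 60 g/L glucose. Since glucose differed too, no comparison separates ethanol from glucose.

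A ribosome holds a single copy of nearly every ribosomal protein, and growing yeast spends a large part of its transcription on their genes. The factors Rap1, Fhl1 and Ifh1 bind most of these promoters, and the TOR and protein kinase A pathways act on them through Sfp1, Sch9 and other proteins to match ribosome production to nutrients and stress. Most of the genes exist as A and B paralogs, which encode the same or nearly the same protein and are often transcribed to unequal extents. For several pairs the protein represses the transcript of its own gene, often of 1 paralog only, by blocking its splicing or speeding its decay.

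Values are log2 intensities, on which a difference of 1 is a doubling. Pairs of the 11 arrays had a Pearson r of 0.943 to 0.999, which was never under 0.993 for arrays of 1 group, whereas the array titled an outlier correlated with them at 0.747 to 0.789. The ribosomal protein probe sets were among the brightest on the arrays: 111 of 127 lay among the 5% brightest genes, and their median over the 11 arrays was 13.44. RNA quality was read from 8 control genes as the median of the 3′ minus the 5′ reading, which was 0.379 to 0.400 in the mutant and 0.361 to 0.435 in the wild type in the ethanol medium. Without ethanol it was 0.240 to 0.266 in the mutant and 0.310 to 0.359 in the wild type. RNA quality thus moved with the medium in both strains and with the strain without ethanol, and its part in the results was not tested. SPT15 itself had a log2 intensity of 13.3 in the mutant and 13.3 in the wild type in the ethanol medium, and 13.5 in both without ethanol, and these readings do not tell the plasmid's allele from the chromosomal gene. By group mean, the a-cell genes MFA1, MFA2, STE2, STE6 and BAR1 lay between 9.79 and 13.4. The alpha-cell genes MF(ALPHA)1, MF(ALPHA)2 and STE3 lay between 7.49 and 8.51 and SAG1, also an alpha-cell gene, between 9.90 and 10.1, where the 95th percentile of probe sets for another yeast was 7.10 to 7.36 by array. Of the genes deleted in BY4741, MET17 lay between 7.68 and 7.90, whereas LEU2 averaged 10.2 in the mutant and 9.65 in the wild type in the ethanol medium, and 8.07 and 7.99 without ethanol. HIS3, of which BY4741 lacks a part, averaged 11.3 in the mutant and 11.5 in the wild type in the ethanol medium, and 11.8 in both without ethanol. The readings of SAG1 and HIS3, and of LEU2 in the ethanol medium, are thus not near that background, and the reason was not tested. Without ethanol LEU2 lay within the 7.49 to 8.51 of MF(ALPHA)1, MF(ALPHA)2 and STE3.

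In the ethanol medium, the ribosomal protein transcripts were lower than without ethanol in both strains, by small amounts that were spread over both subunits. The median of the 127 genes per array was 13.33 and 13.37 in the mutant in the ethanol medium, against 13.46, 13.47 and 13.48 without ethanol. In the wild type it was 13.37, 13.39 and 13.43 in the ethanol medium, against 13.47, 13.49 and 13.52 without ethanol. The groups did not overlap in either strain. Each array reads a whole culture scaled to the other arrays, so fewer cells with a transcript, less transcript per cell and more of other transcripts cannot be told apart.

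**Figure D1:**
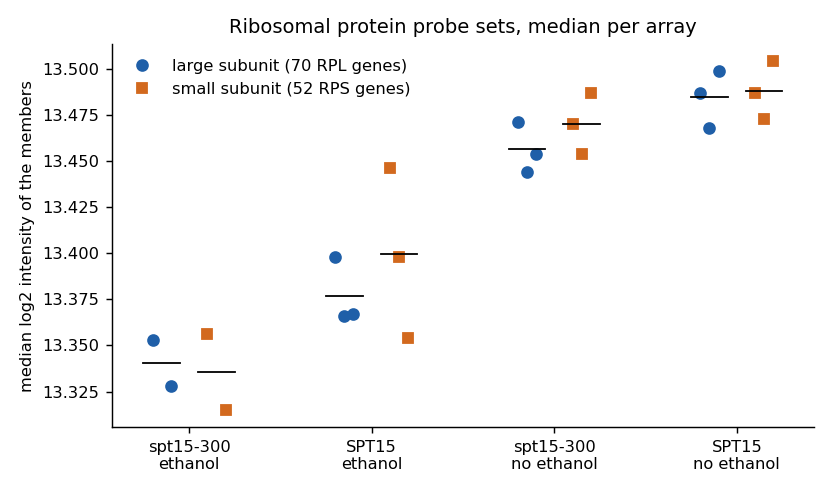
Median log2 intensity of the 70 large-subunit genes (circles) and the 52 small-subunit genes (squares) on each of the 11 arrays, by group, with the group mean as a line. In both strains every array of the ethanol medium lies below every array without ethanol, and the subunits keep close to each other: the large-subunit medians run from 13.33 to 13.35 and the small-subunit medians from 13.32 to 13.36 in the mutant in the ethanol medium.

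In the mutant 74 of 127 ribosomal protein genes were called lower in the ethanol medium than without it and 1 was called higher (limma, with a Benjamini-Hochberg adjusted p below 0.05 across the 5449 genes), against 28.7% of all genes called lower and 33.8% called higher. For the wild type, 65 of 127 were called lower and 1 higher, against 29% of all genes called lower and 31.7% higher. The median change of the members was -0.12 in the mutant and -0.09 in the wild type, where the median of all genes was 0.02 and 0.01. All arrays of the ethanol medium lay below all arrays without ethanol for 109 of 127 members in the mutant (35.8% of all genes) and for 95 of 127 in the wild type (32.5% of all genes). The changes were slight: the quartiles of the members were -0.18 and -0.07 in the mutant and -0.14 and -0.05 in the wild type. When array medians were aligned, the wild type count fell to 38 of 127, which is 29.9% of the members beside 26% of all genes. The mutant count was 66 (52%), beside 28.7% of all genes. Leaving out mutant replicate 3 of the ethanol group leaves 1 array there. The median change in the mutant was then -0.104 for the members, beside 0.023 for all genes. Without replicate 3 of the wild type in either medium, 43 (33.9%) were called lower in the wild type, beside 26.3% or 26.7% of all genes. With mutant replicate 1 of the ethanol group left out, the median change in the mutant was -0.135 for the members, beside 0.012 for all genes.

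Of the members called lower, 55 were called lower in both strains, out of 74 in the mutant and 65 in the wild type. Of all genes 28.7% were called lower in the mutant and 29% in the wild type. The overlap over all genes was not counted, so whether that of the members is particular to them was not tested. Over the 127 members, the change in the mutant and the change in the wild type correlated at 0.825 (Pearson; Spearman 0.774). This is a correlation across genes, which share arrays and brightness and are not independent replicates, and over all 5449 genes it was 0.905. The members called in no comparison numbered 42, and the share over all genes was not counted.

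**Figure D2:**
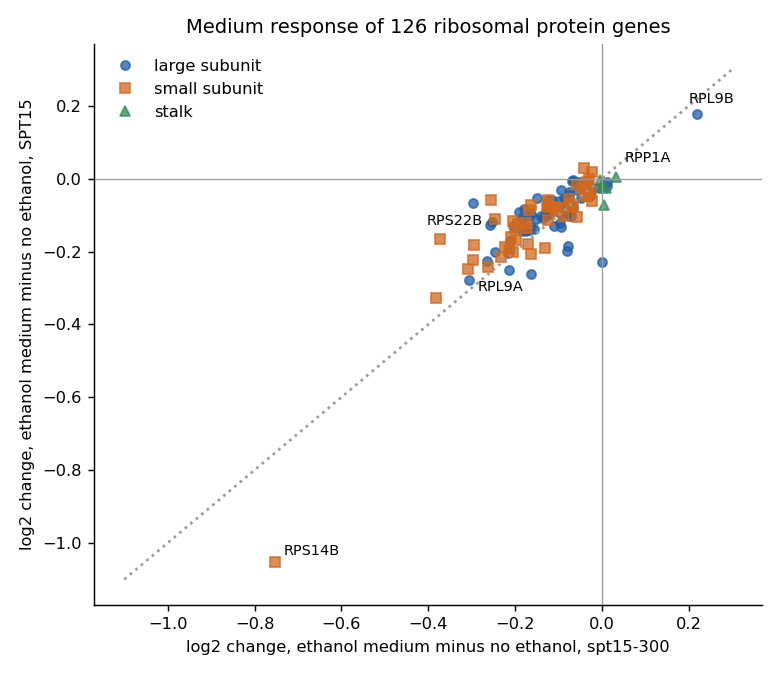
Log2 change in the ethanol medium relative to no ethanol, in spt15-300 cells (horizontal) and SPT15 cells (vertical), for 126 ribosomal protein genes, with large subunit, small subunit and stalk marked by shape and the line of equal change dotted. RPS14B lies far below the rest at -0.75 and -1.05, RPL9B lies above 0 in both strains, and the 5 stalk genes lie close to 0.

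The counts and medians of the subunits were close to each other, and their difference was not tested. In the mutant 43 of 70 large-subunit genes and 31 of 52 small-subunit genes were called lower, with median changes of -0.12 and -0.13. The wild type had 38 of 70 and 27 of 52 called lower, with medians of -0.09 for each. The 1 gene called higher in each strain was RPL9B, of the large subunit.

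The genes of the stalk were not called. The stalk is made of RPP0 and the acidic P proteins, and it recruits the elongation factors of translation. RPP0 (YLR340W) read 13.75 and 13.82 in the mutant and 13.79, 13.77 and 13.80 in the wild type in the ethanol medium, and it read 13.78, 13.78 and 13.81 in the mutant and 13.78, 13.79 and 13.79 in the wild type without ethanol. These groups overlap throughout. By limma 0 of the 5 stalk genes were called in any of the 5 comparisons, and 0 had an unadjusted p under 0.05. Their changes with the medium lay between -0.005 and 0.03 in the mutant and between -0.07 and 0.005 in the wild type. The most negative was RPP1B in the wild type, at -0.07 ± 0.03 (SE, adjusted p = 0.0788). Their mean levels ran from 13.39 to 13.79, and whether the stalk differed from the other members was not tested.

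Of 18 genes present in a single copy, 4 (22.2%) were called lower in the mutant and 3 (16.7%) in the wild type, against 28.7% and 29% of all genes. Of 105 genes with an A or B paralog outside the stalk 70 and 62 were called lower. In the mutant the 4 were RPL3, whose protein borders the peptidyl transferase centre, RPL38, RPS15 and RPS20, with changes of -0.08, -0.18, -0.12 and -0.25. In the wild type the 3 were RPL5, whose protein binds the 5S rRNA, RPL29 and RPS3, a protein of the mRNA entry site, with changes of -0.09, -0.10 and -0.08. These 7 are named because they are few, after their values were seen, and most are close to the threshold. The calls of RPL38 and RPS15 in the mutant ended without replicate 3 of its ethanol group (adjusted p = 0.0587 and 0.0789). The call of RPL3 ended in 13 of the alternatives, that of RPS3 in 12, and those of RPL5 and RPL29 in 7 each, including when any of several single arrays was left out, and such counts here and later leave out the setting with all 12 arrays. Single-copy genes were brighter, with a median level of 13.75 against 13.39 for paralogs, and the difference in counts was not tested. A and B genes were both called lower often: 33 of 54 A genes and 37 of 55 B genes in the mutant, and 28 of 54 and 34 of 55 in the wild type.

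Brightness moved with the size of the change. Of the 64 dimmer members 50 (78.1%) were called lower in the mutant and 48 (75%) in the wild type. Of the 63 brighter members 24 (38.1%) and 17 (27%) were. Of all genes 28.7% were called lower in the mutant and 29% in the wild type, so the brighter members were near that share in the wild type. Across 126 members, without RPL41A, the mean level correlated with the change at 0.477 in the mutant and 0.462 in the wild type. These are Pearson values (Spearman 0.568 and 0.521) across genes on the same arrays. The mean level also covers the arrays of the ethanol medium, so a fall lowers a gene's own mean level. The part this has in the counts and correlations was not tested. An array's reading flattens near the top of its range, and its part in these small changes was not tested.

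**Figure D3:**
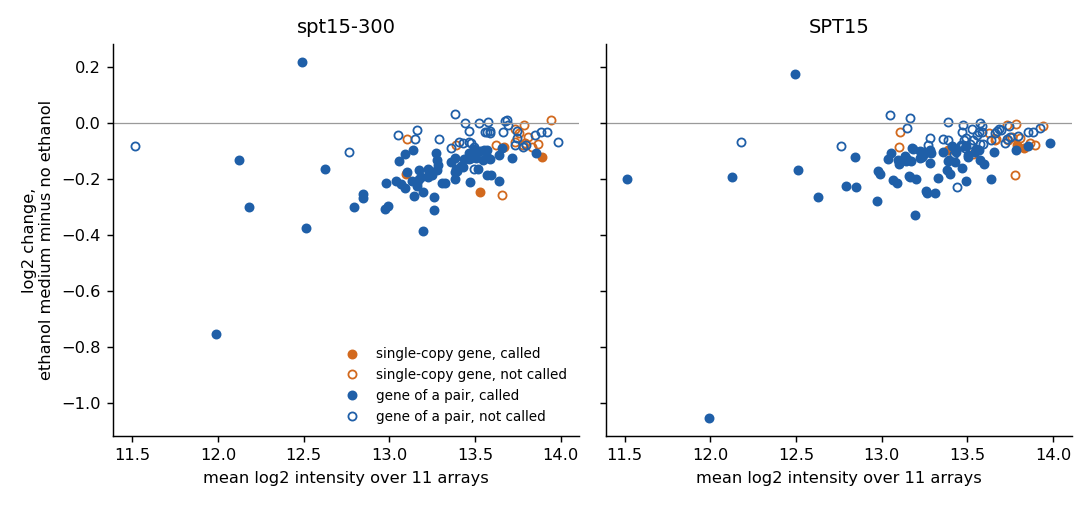
Log2 change with the ethanol medium against mean log2 intensity for 126 ribosomal protein genes, in spt15-300 cells (left) and SPT15 cells (right), with single-copy genes and genes of a pair in different colours and called genes filled. Dimmer genes tend to lie lower, with RPS14B at a mean level of 11.99 the lowest point in both panels.

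The paralogs were compared within each array, as the log2 value of the A gene minus that of the B gene, for the 49 of 59 pairs in which each gene has a probe set of its own. A change of this difference means that the readings of the paralogs changed unequally on the arrays, and the part that the brightness of their probe sets has in it was not tested. With the ethanol medium 18 of 49 pairs (36.7%) were called in the mutant and 15 of 49 (30.6%) in the wild type. Of all single genes 33.8% were called higher and 28.7% lower in the mutant, and 31.7% and 29% in the wild type. Differences between other genes were not fitted, so the pair shares have no background of the same kind. The called A minus B difference was higher in 13 pairs and lower in 5 in the mutant, and higher in 11 and lower in 4 in the wild type. In all, 13 pairs were called in both strains, with the same sign in each, among them RPL9, RPL17, RPL31, RPL40, RPS1, RPS7, RPS14, RPS18, RPS24, RPS26 and RPS28. With mutant replicate 3 of the ethanol group left out 9 pairs were called in the mutant. The gene with the dimmer probe set changed more downward in 14 of the 18 pairs called in the mutant. In the wild type it did so in 12 of the 15 called, and over all 49 pairs in 36 and 27. Dimmer means a lower mean over the arrays used, those of the ethanol medium included, and a fall itself lowers that mean.

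RPS14 gave the largest of these differences. Rps14 is a protein of the small subunit platform that represses the splicing of RPS14B transcripts, and RPS14A gives most of the protein. RPS14B (YJL191W) read 11.57 and 11.49 in the mutant in the ethanol medium, against 12.32, 12.28 and 12.24 without ethanol. In the wild type it read 11.55, 11.46 and 11.40 in the ethanol medium, against 12.49, 12.47 and 12.60 without ethanol. The media are far apart in both strains and the strains overlap in the ethanol medium. RPS14B thus fell 1.69-fold in the mutant (log2 change -0.75 ± 0.06, SE; adjusted p = 4.9e-06) and 2.07-fold in the wild type (-1.05 ± 0.05; adjusted p = 1.5e-07). RPS14A (YCR031C) averaged 13.55 ± 0.007 (SD, n = 2) in the mutant and 13.58 ± 0.014 (n = 3) in the wild type in the ethanol medium, and 13.58 ± 0.011 and 13.58 ± 0.013 (n = 3 each) without ethanol. The A minus B difference was 0.72 ± 0.06 higher in the mutant (SE, adjusted p = 8.8e-06) and 1.05 ± 0.05 higher in the wild type (adjusted p = 2.3e-07). RPS14B and the RPS14 difference were called in both strains under every alternative tried, including all 12 arrays.

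RPL9 was the pair with 1 gene called lower and the other called higher. The signs of the changes of A and B, called or not, were opposite in 3 of the 49 pairs in the mutant and in 4 in the wild type. Rpl9 lies near the base of the stalk. RPL9A (YGL147C) read 12.83 and 12.78 in the mutant in the ethanol medium, against 13.06, 13.11 and 13.16 without ethanol, and 12.86, 12.84 and 12.78 in the wild type in the ethanol medium, against 13.08, 13.08 and 13.14 without ethanol. RPL9B (YNL067W) read 12.49 and 12.58 in the mutant in the ethanol medium, against 12.25, 12.34 and 12.35 without ethanol. In the wild type it read 12.55, 12.69 and 12.72 in the ethanol medium, against 12.41, 12.49 and 12.52 without ethanol. RPL9A lies lower and RPL9B higher on every array of the ethanol medium than on every array of the same strain without ethanol. RPL9A fell by 0.31 ± 0.04 in the mutant and by 0.28 ± 0.04 in the wild type (adjusted p = 0.000303 and 0.000238). RPL9B rose by 0.22 ± 0.06 in the mutant (adjusted p = 0.0105) and by 0.18 ± 0.05 in the wild type (adjusted p = 0.0170). The difference of the pair fell by 0.52 ± 0.07 in the mutant and by 0.45 ± 0.06 in the wild type (adjusted p = 0.000179 and 0.000181). With replicate 3 of the mutant's ethanol group left out, RPL9B was no longer called in the mutant (adjusted p = 0.0890). In the wild type it was not called when replicate 1 of the group without ethanol (0.0669) or replicate 2 or 3 of the ethanol group was left out (0.0536 and 0.0601).

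RPS28 showed the same direction of imbalance with 1 gene near 0. Rps28 is a small-subunit protein that speeds the decay of RPS28B mRNA. RPS28A (YOR167C) read 12.966 and 12.882 in the mutant in the ethanol medium, against 13.164, 13.164 and 13.138 without ethanol, and 13.025, 13.001 and 12.998 in the wild type in the ethanol medium, against 13.210, 13.203 and 13.257 without ethanol. RPS28B (YLR264W) read 13.003 and 13.022 in the mutant in the ethanol medium, against 13.062, 13.039 and 13.063 without ethanol, and 13.11, 13.04 and 13.06 in the wild type in the ethanol medium, against 13.02, 13.03 and 13.07 without ethanol. RPS28A separates the media in each strain, whereas RPS28B overlaps between them in the wild type and lies slightly lower in the ethanol medium in the mutant. The A minus B difference fell by 0.19 ± 0.04 in the mutant (adjusted p = 0.00230) and by 0.24 ± 0.04 in the wild type (adjusted p = 0.000248).

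RPS26 was a pair in which the B gene fell further. RPS26B averaged 13.13 ± 0.10 (n = 2) in the mutant in the ethanol medium, against 13.39 ± 0.015 without ethanol, and 13.12 ± 0.081 in the wild type in the ethanol medium, against 13.36 ± 0.023 without ethanol. The RPS26 difference, of a protein at the mRNA exit channel, was 0.20 ± 0.04 higher in the mutant and 0.21 ± 0.03 higher in the wild type (adjusted p = 0.00140 and 0.000511). For RPS26B the media did not overlap in either strain.

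**Figure D4:**
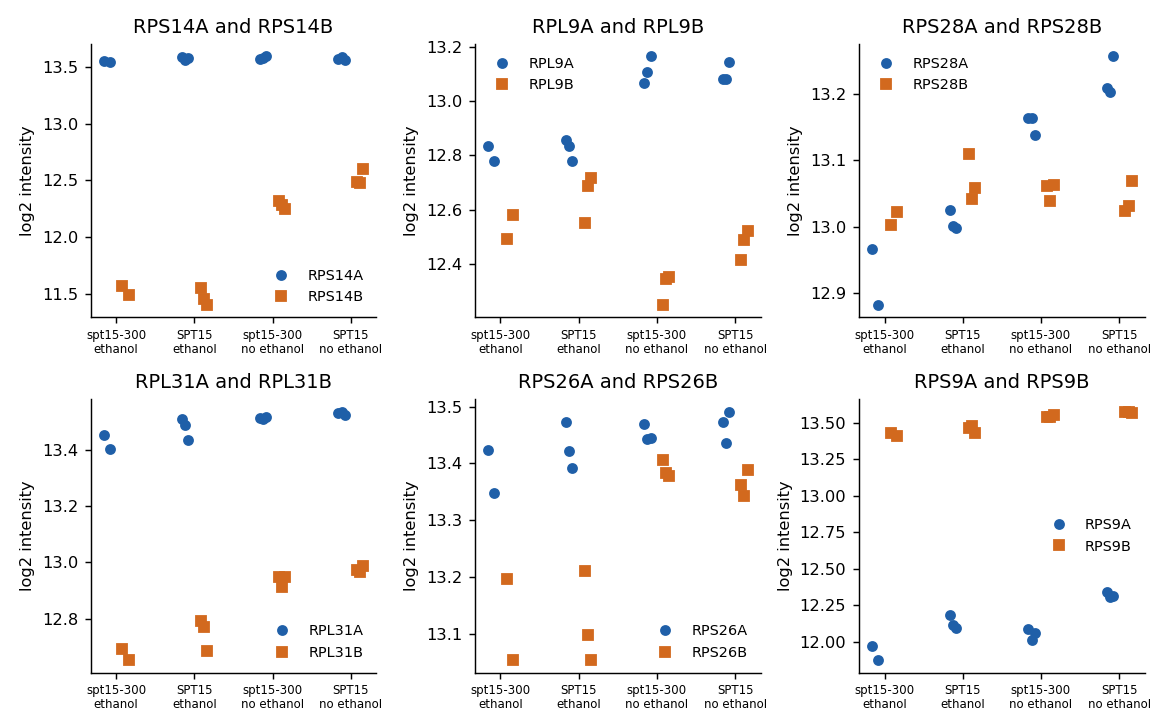
Log2 intensity of both genes of 6 pairs on each of the 11 arrays, by group, with A genes as circles and B genes as squares; each panel has its own vertical scale, and the heights of A and B depend on their probe sets. RPS14B, RPL31B and RPS26B are lower in the ethanol medium while their A genes differ less, RPL9A and RPL9B approach each other, and RPS9A is lower in spt15-300 than in SPT15 cells in each medium.

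The pairs RPL31, RPL40, RPL17, RPS18, RPS24 and RPS7 had the same direction in both strains. Rpl31 and Rpl17 lie at the exit tunnel of the large subunit. RPL31B (YLR406C) averaged 12.67 ± 0.027 (SD, n = 2) in the mutant in the ethanol medium, against 12.94 ± 0.022 (n = 3) without ethanol, and 12.75 ± 0.056 in the wild type in the ethanol medium, against 12.98 ± 0.011 without ethanol (n = 3 each). The media did not overlap in either strain. RPL31B fell by 0.27 ± 0.04 in the mutant and by 0.23 ± 0.04 in the wild type, and RPL31A differed by -0.08 and -0.05. The RPL31 difference was 0.18 ± 0.03 higher in the mutant and 0.17 ± 0.03 higher in the wild type (adjusted p = 0.00101 and 0.000615). RPL40A and RPL40B encode ubiquitin fused to a large-subunit protein. RPL40B fell by 0.22 ± 0.05 in the mutant and by 0.20 ± 0.04 in the wild type, RPL40A differed by -0.07 and -0.01, and the RPL40 difference was 0.15 ± 0.04 and 0.20 ± 0.04 higher (adjusted p = 0.0158 and 0.00179). With replicate 3 of the mutant's ethanol group left out, the mutant's calls of RPL40 (adjusted p = 0.141), RPS18 (0.0732), RPS24 (0.0928) and RPS7 (0.119) were lost. The wild type's call of RPS24 was lost when replicate 1 or 3 of the group without ethanol (0.0513 and 0.0571) or replicate 2 or 3 of the ethanol group was left out (0.0552 and 0.0556). That of RPS7 was lost when replicate 2 or 3 of the group without ethanol (0.0606 and 0.0568) or replicate 3 of the ethanol group was left out (0.0696).

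RPS1 and RPL13 were pairs in which the A gene fell further. RPS1A fell by 0.30 ± 0.04 in the mutant and by 0.22 ± 0.04 in the wild type, and RPS1B differed by -0.17 and -0.09. The RPS1 difference fell by 0.13 ± 0.04 in the mutant and by 0.14 ± 0.04 in the wild type (adjusted p = 0.0176 and 0.00800), and the mutant's call was lost with replicate 2 of its group without ethanol (0.0569) or replicate 3 of its ethanol group (0.0936) left out. RPL13A fell by 0.21 ± 0.04 in the mutant and by 0.25 ± 0.04 in the wild type, whereas RPL13B differed by -0.09 and -0.06. The RPL13 difference was -0.13 in the mutant, where it was not called, and -0.19 ± 0.05 in the wild type (adjusted p = 0.00559).

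**Figure D5:**
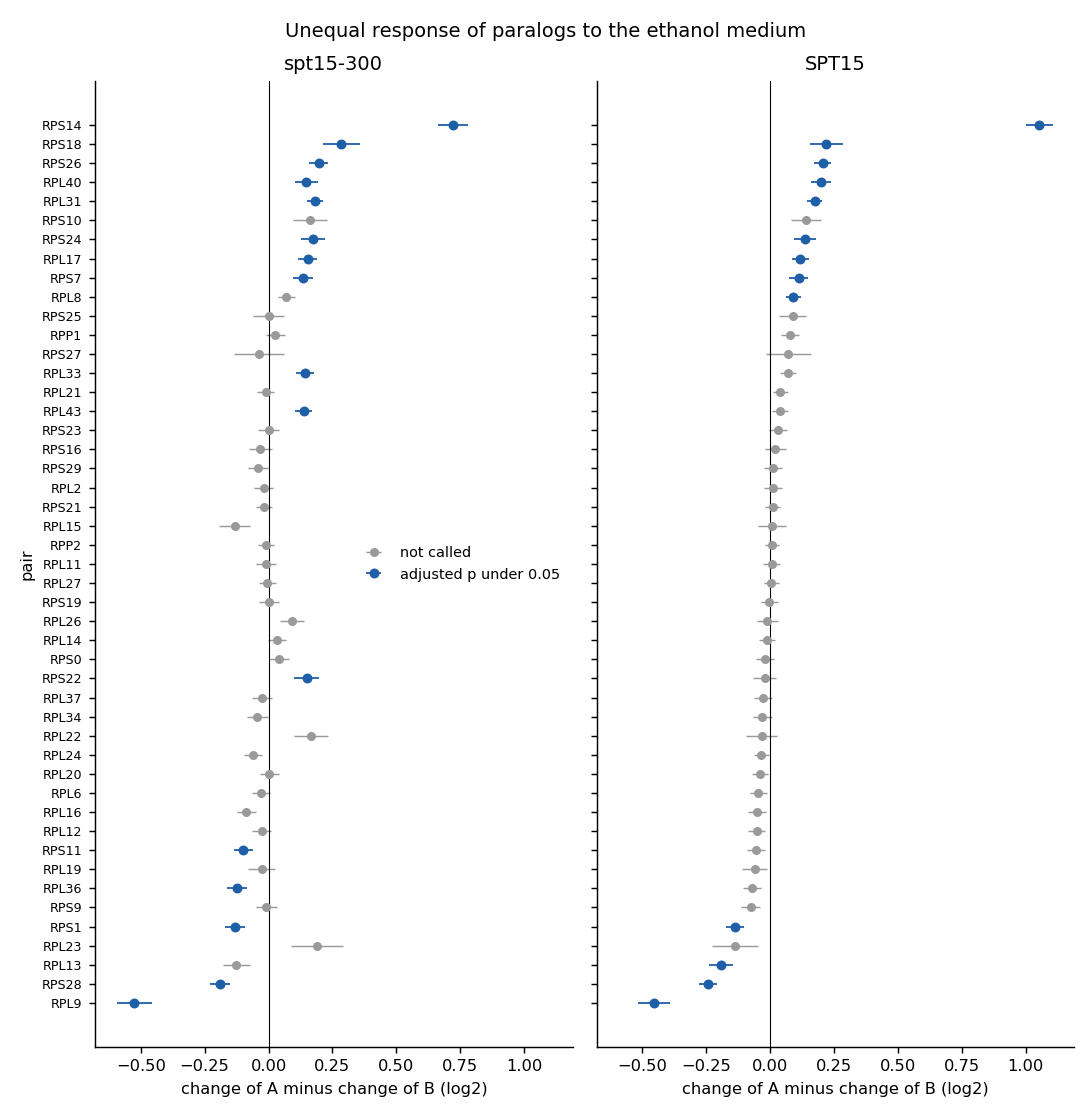
Change with the ethanol medium of the A minus B difference for 47 of the 49 pairs, in spt15-300 cells (left) and SPT15 cells (right), with standard errors as bars and called pairs in blue; pairs are sorted by the value in SPT15 cells. RPS14 lies at the top with 0.72 and 1.05, RPL9 at the bottom with -0.52 and -0.45, and most pairs lie near 0.

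Between the strains few ribosomal protein genes differed. Without ethanol 3 of 127 were called lower in the mutant than in the wild type and 0 higher by limma, against 8.07% of all genes called lower and 8.26% higher. At an unadjusted p under 0.05 there were 5 lower and 0 higher, against 962 and 701 of the 5449 genes. The median difference was -0.02, near the -0.03 of all genes. With ethanol in the medium, 3 of 127 were called lower and 0 higher by limma, against 5.98% and 5.73% of all genes. At an unadjusted p under 0.05, 18 were lower and 0 higher, against 936 and 767 of the 5449 genes. The median difference there was -0.05 against -0.01 for all genes, and for 55 of 127 members both arrays of the mutant lay below all 3 of the wild type (21.5% of all genes). Leaving out mutant replicate 3 of the medium without ethanol left 1 member (0.787%) called lower there, against 3.16% of all genes. In the ethanol medium 9 members (7.09%) were called lower with wild type replicate 3 left out, against 13.7% of all genes. There, 0 were called lower with wild type replicate 2 left out (1.23% of all genes) or with only the groups compared in the fit (0.0551%). With wild type replicate 1 left out 1 member (0.787%) was called lower, against 2.66% of all genes. Leaving out wild type replicate 2 or any mutant array of the medium without ethanol also left 1, against 2.7% to 4.33% of all genes. With mutant replicate 1 or 3 left out, which leaves 1 array, the median difference of the members in the ethanol medium was -0.056 or -0.04.

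RPS9A was the member called between the strains in both media. Rps9 is a small-subunit protein at the mRNA entry site, and it represses its own transcripts through their introns. RPS9A (YPL081W) read 12.09, 12.02 and 12.06 in the mutant without ethanol, against 12.34, 12.31 and 12.31 in the wild type. It read 11.97 and 11.88 in the mutant in the ethanol medium, against 12.18, 12.11 and 12.10 in the wild type. Every mutant array lies below every wild type array of the same medium. RPS9A fell by 0.27 ± 0.04 in the mutant without ethanol (SE, adjusted p = 0.00168) and by 0.21 ± 0.04 in the ethanol medium (adjusted p = 0.0213). RPS9B (YBR189W) averaged 13.54 ± 0.009 in the mutant without ethanol, against 13.57 ± 0.005 in the wild type (SD, n = 3 each), and 13.42 ± 0.016 (n = 2) in the mutant in the ethanol medium, against 13.46 ± 0.024 (n = 3) in the wild type. The within-array RPS9 difference fell by 0.24 ± 0.04 in the mutant without ethanol (adjusted p = 0.00209) and by 0.17 ± 0.04 in the ethanol medium (adjusted p = 0.0298). Of the 49 pairs, 2 (4.08%) were called between the strains without ethanol and 1 (2.04%) in the ethanol medium, with 4 and 5 at an unadjusted p under 0.05. Of all single genes 8.26% were called higher and 8.07% lower without ethanol, and 5.73% and 5.98% in the ethanol medium. Leaving out mutant replicate 3 without ethanol left 1 pair called there, and in the ethanol medium 3 pairs were called with wild type replicate 3 and 2 with mutant replicate 1 left out. Without ethanol RPS9A and RPS9 were called under every alternative but that with all 12 arrays. In the ethanol medium RPS9A was not called with wild type replicate 2 (adjusted p = 0.0508) or mutant replicate 3 left out (0.141), or with only the groups compared (0.215). There the RPS9 difference was not called with wild type replicate 1 or 2 (0.0676 and 0.0530), mutant replicate 3 (0.183) or, from the medium without ethanol, wild type replicate 2 left out (0.0528).

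RPS14B was also called between the strains without ethanol, where its values are given above. It fell by 0.24 ± 0.05 in the mutant (adjusted p = 0.0121), and all 3 mutant arrays lay below all 3 of the wild type. In the ethanol medium the difference was 0.06 ± 0.06 (adjusted p = 0.478). The RPS14 difference was 0.24 ± 0.05 higher in the mutant without ethanol (adjusted p = 0.0138). Without replicate 3 of the mutant without ethanol neither was called (adjusted p = 0.0523 for RPS14B and 0.0592 for the RPS14 difference).

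The other genes called between strains were close to the threshold. RPL15B, a large-subunit gene, read 11.49, 11.51 and 11.51 in the mutant without ethanol, against 11.65, 11.65 and 11.63 in the wild type, and fell by 0.14 ± 0.04 (adjusted p = 0.0434). RPS22B in the ethanol medium read 12.28 and 12.21 in the mutant, against 12.53, 12.52 and 12.36 in the wild type, and fell by 0.22 ± 0.06 (adjusted p = 0.0347). RPS18A read 13.09 and 13.05 in the mutant there, against 13.21, 13.21 and 13.17 in the wild type, and fell by 0.13 ± 0.04 (adjusted p = 0.0433). None of the groups overlap in these 3 comparisons. The calls ended in 11, 10 and 13 of the alternatives. For RPL15B these included leaving out any array of the 2 groups (adjusted p = 0.0776 to 0.128), and replicate 1 or 2 of the wild type in the ethanol medium (0.0530 and 0.0531). For RPS22B they included leaving out wild type replicate 1 or 2 (0.0813 and 0.104), either mutant array (0.0630 and 0.204) or, from the medium without ethanol, wild type replicate 2 (0.0596) or any mutant array (0.0503 to 0.0593). For RPS18A they included leaving out the same arrays (0.0614 to 0.214) and wild type replicate 1 of the medium without ethanol (0.0573).

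The interaction asks whether the medium response differed between mutant and wild type. Of 127 members 0 were called higher and 0 lower by limma, against 0.385% and 0.826% of all genes, with 1 higher and 1 lower at an unadjusted p under 0.05. With array weights on all 12 arrays 1 member was called higher, against 3.69% of all genes, and 1 pair was called. With wild type replicate 3 of the ethanol group left out 1 member (0.787%) was called lower, against 4.62% of all genes. The median interaction of the members was -0.028, beside 0.011 for all genes. Leaving out 1 array moved that of the members between -0.042 and -0.009. The first was without wild type replicate 3 and the last without mutant replicate 3, both of the ethanol group. The member with the smallest p was RPS14B, which fell by 0.75 in the mutant and by 1.05 in the wild type, a difference of 0.30 ± 0.08 (SE, adjusted p = 0.0956). RPS22B fell by 0.37 ± 0.06 in the mutant and by 0.17 ± 0.05 in the wild type, a difference of -0.21 ± 0.08 (adjusted p = 0.196). Of the pairs, 0 of 49 (0%) were called and 4 had an unadjusted p under 0.05. The smallest was RPS14 (-0.33 ± 0.08, adjusted p = 0.0850).

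RPL22B is held low by its own protein, which blocks the splicing of its transcript. It averaged 12.01 ± 0.15 (SD, n = 2) in the mutant in the ethanol medium, against 12.30 ± 0.039 (n = 3) without ethanol, and 12.14 ± 0.12 in the wild type in the ethanol medium, against 12.21 ± 0.044 without ethanol (n = 3 each). The media separate in the mutant and overlap in the wild type. It fell by 0.30 ± 0.08 in the mutant (adjusted p = 0.00788), and the wild type change was -0.07 ± 0.07 (adjusted p = 0.419), with a difference between strains of -0.23 ± 0.10 that was not called (adjusted p = 0.259). In the mutant it was not called with replicate 3 of the ethanol group left out (adjusted p = 0.0940). RPL22A fell by 0.13 ± 0.03 in the mutant and by 0.10 ± 0.03 in the wild type. The wild type call of RPL22A (adjusted p = 0.0162) was lost with wild type replicate 3 left out of the medium without ethanol (0.0504) or of the ethanol medium (0.0503). RPL30, whose protein also blocks the splicing of its own transcript, averaged 13.68 ± 0.018 (n = 2) in the mutant and 13.74 ± 0.015 in the wild type in the ethanol medium, and 13.75 ± 0.019 and 13.74 ± 0.032 without ethanol (SD, n = 3 each), with no call in any comparison.

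In some members 1 array lay far above the rest of its group, as in these 4, which were picked after their values were seen. RPS31, a ubiquitin fusion gene of the small subunit, read 14.09, 13.66 and 13.68 in the mutant without ethanol, and its other groups lay between 13.55 and 13.67. RPL25, whose protein sits at the exit tunnel, read 13.73, 14.23 and 13.79 in the wild type without ethanol. RPL23A read 13.24 and 13.72 in the mutant in the ethanol medium. RPS31, RPL25 and RPL23A were called in no comparison. RPS27B read 13.48, 13.85 and 13.56 in the wild type without ethanol, where replicate 2 is the high array, as it is for RPL25. RPS27B was called lower with the medium in the wild type (-0.21 ± 0.08, SE, adjusted p = 0.0485), and without that array its change was -0.10 with an adjusted p of 0.114. Its call ended in 13 of the alternatives.

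What a gene's value rests on differed within the family. By the suffix in the probe set's name, 29 of 148 probe sets share sequence with other genes, and 25 of 127 genes were read from such a probe set, 9 of them because they have no other and the rest because it was the brightest. A shared probe set can mix the paralogs. RPL18B shows this, and it was singled out after its values were seen: on its own probe set it fell by 0.49 ± 0.04 in the mutant and by 0.53 ± 0.04 in the wild type (adjusted p = 1.4e-05 and 3.3e-06), but the brighter shared probe set gave -0.08 ± 0.03 and -0.05 ± 0.03. RPS18B gave -0.48 and -0.34 on its own and -0.13 and -0.08 on the shared one. With each gene's own probe set wherever it has one, 79 members (62.2%) were called lower in the mutant and 70 (55.1%) in the wild type. Of all genes 28.8% and 29.1% were called lower in that setting. RPL41A was below background on every array, with group means of 6.62 in the mutant and 6.62 in the wild type in the ethanol medium and 6.76 and 6.67 without ethanol, so no fold is given for it. RPP1, the ribonuclease subunit, averaged 10.27 ± 0.13 (n = 2) in the mutant and 10.26 ± 0.15 in the wild type in the ethanol medium, and 10.46 ± 0.092 and 10.54 ± 0.028 without ethanol (SD, n = 3 each). It was called lower in the wild type (-0.29 ± 0.08, adjusted p = 0.0111).

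Known regulators of these genes were called in both directions with the medium, at shares near those of all genes. Of 24 measured, 10 (41.7%) were called higher and 7 (29.2%) lower in the mutant, against 33.8% and 28.7% of all genes. The wild type had 8 (33.3%) higher and 7 (29.2%) lower, against 31.7% and 29% of all genes. TPK3, a catalytic subunit of protein kinase A, fell by 0.62 ± 0.11 in the mutant and by 0.69 ± 0.10 in the wild type, whereas its homologue TPK2 rose by 0.19 ± 0.05 in the mutant and by 0.28 ± 0.04 in the wild type. SCH9, a kinase downstream of TOR, fell by 0.30 ± 0.10 in the mutant and by 0.62 ± 0.09 in the wild type. RAP1 fell by 0.20 ± 0.06 in the mutant and by 0.38 ± 0.05 in the wild type. RIM15, a kinase held back by nutrient signals, rose by 0.60 ± 0.08 in the mutant and by 0.41 ± 0.07 in the wild type. STB3, a repressor of ribosome synthesis genes, rose by 0.49 ± 0.05 in the mutant and by 0.45 ± 0.04 in the wild type. CRF1, a corepressor that competes with Ifh1, differed by 0.45 ± 0.20 in the mutant (adjusted p = 0.0689) and rose by 0.71 ± 0.17 in the wild type (adjusted p = 0.00558). In the mutant the call of RAP1 was lost with ethanol replicate 1 left out (adjusted p = 0.154), and that of SCH9 with either ethanol array (0.0767 and 0.0993) or replicate 1 or 2 without ethanol left out (0.0732 and 0.0544).

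Between the strains, 3 of the 24 regulators (12.5%) were called higher in the mutant in the ethanol medium, where 5.73% of all genes were. Without ethanol 1 of 24 (4.17%) was called higher, where 8.26% of all genes were. In the ethanol medium SFP1, an activator of ribosomal protein genes, rose by 0.40 ± 0.10 in the mutant (adjusted p = 0.0328), RIM15 rose by 0.38 ± 0.08 (0.0245) and REB1 by 0.14 ± 0.04 (0.0454). Without ethanol YAK1, a kinase restrained by protein kinase A, rose by 0.22 ± 0.06 in the mutant (adjusted p = 0.0282). The call of REB1 ended in 16 of the alternatives, SFP1 in 8, YAK1 in 4 and RIM15 in 3. With mutant replicate 3 of the ethanol group left out, SFP1 (adjusted p = 0.218), REB1 (0.228) and RIM15 (0.127) were not called, and RIM15 was not called with mutant replicate 1 left out either (0.0688). For YAK1 wild type replicate 2 or 3 (0.0565 and 0.0749) or mutant replicate 2 or 3 (0.0956 and 0.106) of the medium without ethanol ended the call.

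Most genes on a list of chaperones and partners of single ribosomal proteins or of the whole ribosome were called lower. Of 23 partner genes 16 (69.6%) were called lower and 2 (8.7%) higher in the mutant, against 28.7% and 33.8% of all genes. In the wild type 20 (87%) were called lower and 2 (8.7%) higher, against 29% and 31.7% of all genes. Their medians were -0.20 in the mutant and -0.31 in the wild type, beside the -0.12 and -0.09 of the ribosomal protein genes. LTV1, which helps to build the head of the small subunit, fell by 1.11 ± 0.21 in the mutant and by 1.15 ± 0.19 in the wild type. SYO1, which carries Rpl5 and Rpl11 into the nucleus, fell by 0.80 ± 0.19 in the mutant and by 0.81 ± 0.17 in the wild type. BCP1, the chaperone of Rpl23, fell by 0.60 ± 0.14 in the mutant and by 0.74 ± 0.13 in the wild type. RRB1, which escorts Rpl3, ACL4, which escorts Rpl4, TSR4, which escorts Rps2, and TSR2, which escorts Rps26, fell by between 0.56 and 0.59 in the mutant and by between 0.53 and 0.68 in the wild type. NAP1 was among those that rose, by 0.30 ± 0.04 in the mutant and by 0.20 ± 0.04 in the wild type. With mutant replicate 3 of the ethanol group left out, SYO1 (adjusted p = 0.0568), BCP1 (0.0542), ACL4 (0.0605) and TSR2 (0.0572) were not called in the mutant.

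Other ribosome-related genes set a scale for these changes. Of all genes, 28.7% were called lower and 33.8% higher in the mutant, and 29% lower and 31.7% higher in the wild type. Of 73 genes of ribosome assembly 68 (93.2%) were called lower in the mutant and 71 (97.3%) in the wild type, with medians of -0.65 and -0.64. Of 38 translation factor genes 26 (68.4%) were called lower in the mutant and 28 (73.7%) in the wild type, with medians of -0.23 and -0.26. The 68 mitochondrial ribosomal protein genes had 26 (38.2%) called lower and 11 (16.2%) higher in the mutant, with a median of -0.06. In the wild type 7 (10.3%) were called lower and 22 (32.4%) higher, with a median of 0.04. The last share is near that of all genes. The differences between these lists were not tested.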

How the data were processed

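Total RNA of 12 cultures was measured on 12 Affymetrix Yeast Genome 2.0 arrays. The authors deposited linear intensities of 10928 probe sets, made with RMA, per the submitters' processing notes, and the RMA version and settings are not stated there. Intensities were turned into log2 values here, with no pseudocount and no filter on low values. Probe sets were named with the platform annotation and RefSeq's R64 gene table, which gave 5498 probe sets of single yeast genes, and the brightest probe set stands for each of 5449 genes. Arrays give no depth, and their number limits the precision.

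All 4 groups (11 arrays) were fitted with limma 3.58.1 in R 4.3.3 (lmFit, eBayes, 7 residual plus 2.73 prior degrees of freedom), with Benjamini-Hochberg adjustment over all genes and calls at an adjusted p under 0.05. Paralog pairs were tested as within-array A minus B differences on gene-specific probe sets, and their rows were adjusted together with those of all genes. The fit was tested on simulated data. Named members are the 6 called with the smallest p in each direction and comparison, the stalk, the ubiquitin fusions, RPP1, RPL22A, RPL22B, RPL30, RPS9A, RPS14A and RPS14B, and the genes of the 8 called pairs with the smallest p, plus genes named for being few or after their values were seen, as the text says, and called genes of the regulator and partner lists. The members, lists, tests and naming rule were chosen with earlier results of these data known. Replicates are separate cultures per the series' design.

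The alternatives were all 12 arrays with and without array weights, a replicate block, aligned medians, repeated quantile normalization, the lowest 25% of genes left out, only the groups compared, a variance trend with robust fitting, each replicate left out, and other choices of probe set. Whether replicate numbers pair the arrays was checked, and they were not taken to do so. Members that the text does not name were counted and fitted with the others, and some results are not reported here.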

Additional observations from a re-analysis of the deposited data

How the results depend on the processing

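Of 160 calls of named genes and pairs, 16 were kept with all 12 arrays, where the array titled an outlier enters, and 149 with array weights on all 12. The direction changed for 5 of them, all with all 12 arrays: in the mutant DOT6, KSP1, NAP1 and STB3 (medium, -0.207, -0.0607, -0.0390 and -0.0285) and BTT1 (strain in the ethanol medium, -0.0343). No other setting turned a direction. With all 12 arrays, members called lower for the medium numbered 4 (3.15%) in the mutant and 1 (0.787%) in the wild type, against 8.97% and 2.55% of all genes. For the strain they numbered 0 in either medium, against 0.0184% of all genes without ethanol and 0% in the ethanol medium. Members called higher for the medium numbered 0 in both strains, against 4.68% of all genes in the mutant and 4.94% in the wild type. Pairs called numbered 2 in the mutant and 1 in the wild type for the medium, and 0 for the strain in either medium. With array weights, the strain without ethanol gave 2 members higher and 15 (11.8%) lower, against 21.7% and 28.4% of all genes, and 11 pairs. In that setting the strain in the ethanol medium gave 0 pairs. The interaction gave 1 member higher, against 3.69% of all genes, and 1 pair. Aligned medians left 38 members (29.9%) lower in the wild type, against 26% of all genes. With only the groups compared, the strain without ethanol gave 4 pairs. The strain in the ethanol medium then gave 0 members lower, against 0.0551% of all genes, and 0 pairs. In the ethanol medium the strain gave 11 members (8.66%) lower with the variance trend and robust fitting, against 6.79% of all genes. It gave 2 pairs with repeated quantile normalization and 3 without the lowest 25% of genes. The cause was not tested. Over the fits that leave out 1 array, members called lower ranged from 45 to 74 in the mutant and from 43 to 63 in the wild type for the medium, from 1 to 3 for the strain without ethanol, from 0 to 9 for the strain in the ethanol medium and from 0 to 1 for the interaction. Members called higher ranged from 0 to 2, 0 to 1, 0 to 0, 0 to 1 and 0 to 1 in the same order. Pairs called ranged from 9 to 24, 12 to 16, 1 to 3, 0 to 3 and 0 to 1. The shares of all genes moved as well, given here without the fits that leave 1 array in a group. Called lower were 24.5% to 29.6% in the mutant and 25.7% to 28.9% in the wild type for the medium. For the strain they were 2.99% to 9.21% without ethanol and 1.23% to 13.7% in the ethanol medium, and for the interaction 0.239% to 4.62%. Called higher were 30.2% to 34.4%, 27.8% to 31.3%, 4.66% to 8.66%, 2.15% to 10.6% and 0.0551% to 3.6% in the same order. The deviations of arrays with the same replicate number correlated at -0.247 to 0.709 (median 0.185, 15 pairs). Those of arrays with different numbers correlated at -0.629 to 0.476 (median -0.126, 30 pairs). Not every same-number correlation was over 0.1, so the numbers were not taken as pairing the arrays. With the replicate block the strain in the ethanol medium gave 1 member (0.787%) lower, against 4.66% of all genes. The medium gave 75 members (59.1%) lower in the mutant and 65 (51.2%) in the wild type, against 29.8% and 30.6% of all genes. Most members lie near the top of the arrays' range, and how far this limits small changes was not tested.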

Other observations

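Several ribosomal protein genes are neighbours in the gene order of the R64 assembly, and the changes within these couples were close in some and far apart in others. RPS16B and RPL13A are divergent neighbours, with medium changes of -0.09 and -0.21 in the mutant and -0.10 and -0.25 in the wild type. RPL13A in turn faces RPP1A, which changed by 0.03 in the mutant and 0.005 in the wild type. RPL24A and RPL30 are divergent, with changes of -0.18 and -0.07 in the mutant and -0.13 and -0.004 in the wild type. RPS14B faces RPS22A, which changed by -0.22 in the mutant and -0.19 in the wild type. RPL13B and RPS16A, which are divergent, had closer values of -0.09 and -0.11 in the mutant and -0.06 and -0.08 in the wild type. RPS15 and RPP2A, also divergent, had -0.12 and 0.00 in the mutant and -0.08 and -0.02 in the wild type. RPS22A is also divergent from RPL39, which changed by -0.06 in the mutant and -0.03 in the wild type. RPS9B and RPL21A, in tandem, had -0.12 and -0.10 in the mutant and -0.11 and -0.03 in the wild type. RPS19B and RPL18B, also in tandem, had -0.03 and -0.08 in the mutant and -0.04 and -0.05 in the wild type. In these couples RPS19B, RPL18B, RPL21A and RPS16A are read from shared probe sets. On their own probe sets RPS19B and RPL18B had -0.10 and -0.49 in the mutant and -0.08 and -0.53 in the wild type. RPL21A and RPS16A had -0.09 and -0.12 in the mutant and -0.06 and -0.08 in the wild type on theirs. These couples were picked for their position alone, and the differences within them were not tested.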
